A study of Mus musculus with 6 samples.

Results

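The cells described here were 220 of the 23008 CD45+ immune cells (0.956%) in 6 single-cell RNA-seq libraries from mouse liver with breast tumor metastasis. They were chosen by measured values: in the deposited scaled scores, the mean of Cd160, Itga1, Xcl1 and Cd7 was above 2, the mean of Ncr1, Klra7, Klri2 and Eomes was at or below 1.5, and the mean of Cd8a and Cd8b1 was below 1.5. They are called members below, or Xcl1 Cd160 Itga1 cells. Balb/c mice received 4T07 mouse mammary tumor cells by intracardiac injection, carrying either a scrambled control shRNA (Ctrl) or an shRNA against Tim3 (Tim3-KD). The knockdown was thus in the tumor cells, and the immune cells sequenced were those of the host. CD45+ cells were sorted from liver pieces of tumor-free adjacent tissue at day 3, micrometastasis at day 3 and macrometastasis at day 12. Each of the 6 combinations of site and tumor line was 1 library made from a pool of 2 mice. With 1 library per group no test within a site was possible and none over the 3 sites was run, so every interval below is a 95% interval that covers counting error only.

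Group 1 innate lymphocytes are natural killer (NK) cells and type 1 innate lymphoid cells (ILC1). Both kill or secrete interferon gamma without a rearranged antigen receptor. The CD3 chains transmit the signal of the T cell receptor, although transcripts of single CD3 chains can also be found in NK cells and ILC1. Conventional NK cells circulate and depend on the transcription factor Eomes, whereas liver ILC1 stay in the tissue, where the integrin chain CD49a, encoded by Itga1, binds collagen. T cells that live in the liver, natural killer T cells and many gamma-delta T cells included, share much of the ILC1 program. The 4 genes that chose the cells do not separate these kinds: Cd160 encodes a receptor for HVEM, Xcl1 a chemokine that attracts cross-presenting dendritic cells, and Cd7 a surface protein of T and NK cells. In the GRCm38 annotation Cd160 lies on chromosome 3 (96798763 to 96829351), Itga1 on chromosome 13 (114953096 to 115101964), Xcl1 on chromosome 1 (164931644 to 164935527) and Cd7 on chromosome 11 (121036747 to 121039418), each a protein-coding gene on the minus strand.

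The libraries held 7086531 to 79971752 UMIs, with a median of 6300 to 10248 UMIs per cell. Levels are given as CPM, the UMIs of a gene per 1000000 UMIs of the cells concerned, from UMIs recovered from the deposited scores. UMIs of 1 cell are not independent, so the true error of a level or a ratio is wider than its interval. A member had a median of 5799 UMIs in the adjacent tissue of Ctrl mice and 12443 in that of Tim3-KD mice. The medians were lower in the metastases, with 4132 (Ctrl) and 3457.5 (Tim3-KD) in micrometastasis and 5094 and 4774 in macrometastasis. None of the 59 barcode sequences found in more than 1 library belonged to a member.

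The threshold was not a gap in the data. The lowest member scored 2.02 in adjacent tissue and 2.00 in both metastases, and the highest cell that the threshold left out scored 1.95 in adjacent tissue and 1.99 in both. Within 0.25 of the threshold lay 7, 23 and 19 members and 8, 32 and 20 cells left out (adjacent tissue, micrometastasis, macrometastasis). In all, 22 members carried UMIs of a single one of the 4 genes, 91 carried 2 of them, 76 carried 3 and 31 carried all 4. Because the sites were scaled apart, a single UMI of Cd160 scored a median of 5.07 in micrometastasis and 4.30 in macrometastasis but 2.27 in adjacent tissue, so the same rule asked for fewer UMIs in the metastases.

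The markers did not settle the working name of these cells as ILC1. Of the 220 members, 181 (82.3%, exact binomial interval 76.6 to 87.1) carried a UMI of Cd3d, Cd3e or Cd3g, and 169 carried at least 2 of these 3 chains. Cd3d was also found in neutrophils, but Cd3e or Cd3g alone gave the same 181 members, against 1.22% to 5.46% of the B cells of the 6 libraries, which should lack both and had medians of 3560 to 9839 UMIs. Conventional NK cells, which have no T cell receptor, carried Cd3g in 11.7% to 61.9% and Cd3e in 2.79% to 28.6% of cells by library. A CD3 chain was found in 24 of 25 adjacent tissue members with Ctrl and 6 of 7 with Tim3-KD. It was 30 of 52 in micrometastasis Ctrl and 31 of 36 in micrometastasis Tim3-KD. It was 26 of 36 in macrometastasis Ctrl and 64 of 64 in macrometastasis Tim3-KD. Most members in every library therefore carried CD3 transcripts. Such transcripts do not by themselves separate T cells from ILC1, but Trac, the constant region of the T cell receptor alpha chain, was also found in 121 of the 220 members (55%), and the members are called by genes of the rule.

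Split after these values had been seen, the members formed 3 groups of unequal size. The first, 179 cells with a CD3 chain and under 3 UMIs of the endothelial genes Stab2, Clec4g, Bmp2, Kdr and Pecam1, made up 81.4% of members. Of these, 118 carried Trac, 32 carried Cd4 and 3 carried a CD8 gene. At least 2 UMIs of Trdc, the delta chain constant region, were found in 21 of them, 6 of which also carried Trac. Trdc alone does not mark a gamma-delta T cell here, since conventional NK cells held it at 134 to 279.9 CPM.

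The second group was 22 cells with at least 3 UMIs of the 5 endothelial genes, 17 of them from micrometastasis Ctrl. Of these 22, 19 met the rule on Itga1 alone, and 2 carried a CD3 chain. In micrometastasis this group held 3920 CPM of Clec4g, a lectin of liver sinusoidal endothelium, and 1819 CPM of Kdr, a receptor for vascular endothelial growth factor, both among the genes that defined it. Its Itga1 level was 1212 CPM, against 173 CPM in the members with a CD3 chain, and Nkg7, a protein of cytotoxic granules, was at 229 CPM against 1360.5 CPM. Itga1 is the gene that chose most of these cells, whereas Nkg7 was no part of the rule.

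The third group was the 19 members without a CD3 chain and without endothelial genes. Macrometastasis Ctrl held 10 of them, micrometastasis Ctrl 6, micrometastasis Tim3-KD 2 and adjacent tissue Ctrl 1, and the other 2 libraries held 0. Nkg7 was found in 18 of them, Ncr1, the activating receptor NKp46, in 12 and Trac in 1. Their lack of Cd3d, Cd3e and Cd3g was fixed by the choice of the group. Xcl1 was at 2398 CPM in the 8 such cells of micrometastasis and 2698 CPM in the 10 of macrometastasis, against 2216 and 1786 CPM in the members with a CD3 chain, but Xcl1 was one of the genes that chose both. Ccl5, a chemokine of cytotoxic lymphocytes, was at 11191 CPM in the 10 cells of macrometastasis against 4945 CPM in the CD3 group. Their Gzma level there, 3522 CPM, came from 4 of the 10 cells.

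**Figure D1:**
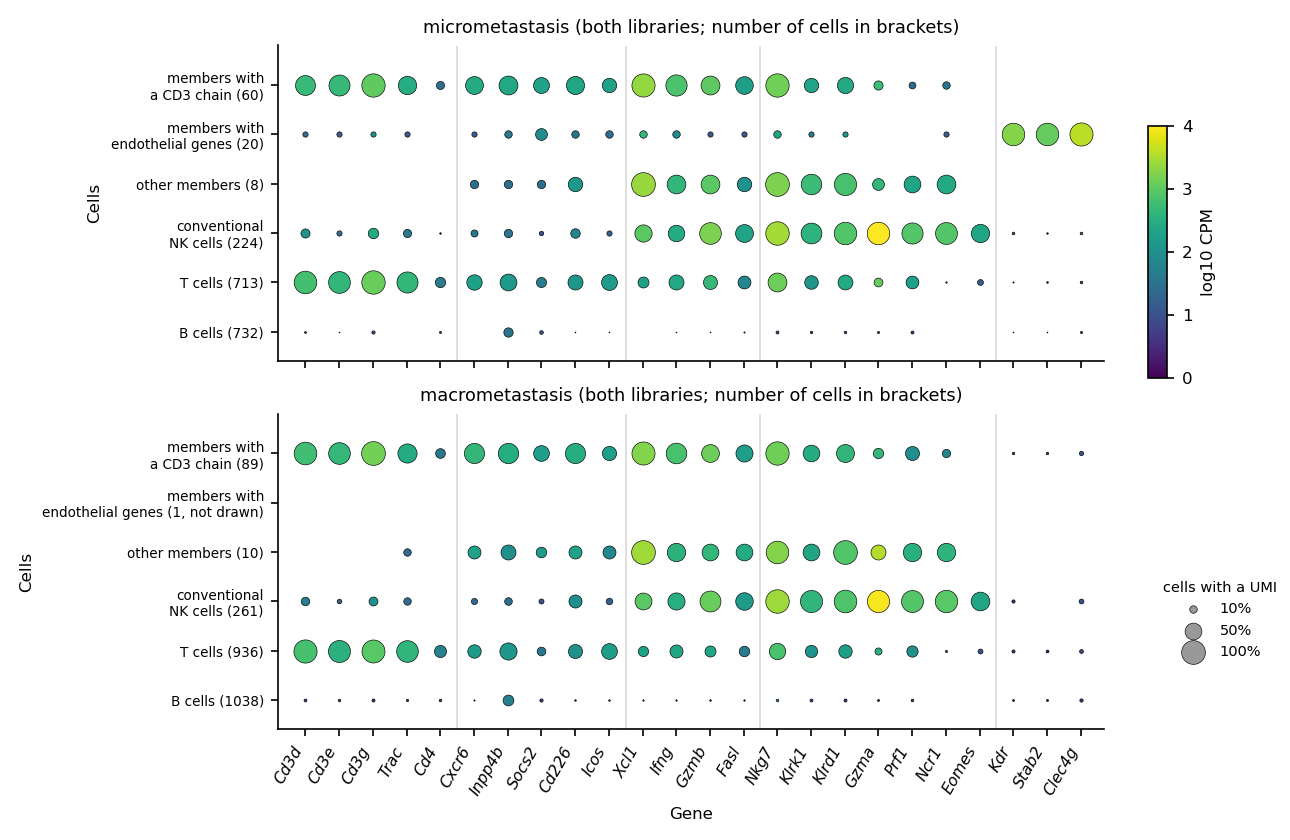
Dot plot of 24 genes (x axis) in 6 kinds of cell (y axis, with the number of cells), for both libraries of micrometastasis (top) and of macrometastasis (bottom). Dot size is the percentage of cells with a UMI and color is the level as log10 CPM; a gene with no UMI has no dot, and the single member with endothelial genes in macrometastasis was not drawn. Members with a CD3 chain show Cd3d, Cd3e and Cd3g together with Xcl1, Ifng and Nkg7, the cells with Kdr, Stab2 and Clec4g show few lymphocyte genes, and the other members lack Cd3e and Cd3g.

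Transcripts of other lineages were counted with the marker lists for B cells, neutrophils, monocytes and macrophages, and endothelium and hepatocytes. The summed level of the endothelial and hepatocyte list in members was 2409 CPM in micrometastasis Ctrl, 536 CPM in micrometastasis Tim3-KD, 344 CPM in adjacent tissue Tim3-KD and 11.3 to 74.6 CPM in the other 3 libraries. The summed B cell list reached 373 and 355 CPM in macrometastasis (Ctrl, then Tim3-KD) and 25.9 to 283 CPM elsewhere, with Ms4a1 at 0 in all 4 libraries of day 3. The neutrophil list stood at 0 to 259 CPM. The monocyte and macrophage list stood at 153 to 428 CPM, of which Ccr2, a chemokine receptor that lymphocytes also express, was the larger part in every library, and Vsig4 was at 0 outside micrometastasis Tim3-KD. In all, 28 members had at least 3 UMIs of the B cell, neutrophil or monocyte and macrophage lists with Ccr2 set aside. The part of these transcripts in the results below was not tested, except where values without the endothelial cells are given.

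The 4 genes of the rule varied between libraries, which is a description of what chose the cells. In the order Ctrl, then Tim3-KD, used below for pairs of values without a label, Xcl1 was at 1915 and 2635 CPM in adjacent tissue, at 2231 and 1307 CPM in micrometastasis and at 2308 and 1542 CPM in macrometastasis. Cd160 was at 509.9 and 582 CPM in adjacent tissue, 164 and 221 CPM in micrometastasis and 308 and 302 CPM in macrometastasis. Cd160 was thus higher in the site where 1 of its UMIs scored least. Itga1 was at 249 and 202 CPM in adjacent tissue, 454 and 229 CPM in micrometastasis and 94.5 and 179 CPM in macrometastasis, and its highest level, in micrometastasis Ctrl, was that of the library with 17 members of endothelial genes. Cd7 was at 771 and 404 CPM, 389 and 121 CPM, and 289 and 537 CPM in the same order, with the lowest level in micrometastasis Tim3-KD.

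How common the members were in each library addresses whether Tim3 in the tumor cells went with a change in these cells. In adjacent tissue the members made up 25 of 1803 cells with Ctrl (1.39%, 0.899 to 2.04) and 7 of 542 with Tim3-KD (1.29%, 0.521 to 2.64), a difference of -0.0951 percentage points (Newcombe interval -1.03 to 1.33). Neutrophils were 38.3% of the adjacent tissue cells with Ctrl and 3.51% with Tim3-KD, and B cells 10.8% and 33.8%. Among adjacent tissue cells other than neutrophils the difference in members was -0.908 points (-2.16 to 0.665). In micrometastasis they were 52 of 5106 cells in Ctrl (1.02%, 0.762 to 1.33) and 36 of 5142 in Tim3-KD (0.700%, 0.491 to 0.968), a difference of -0.318 points (-0.688 to 0.0418). In macrometastasis they were 36 of 4913 cells in Ctrl (0.733%, 0.514 to 1.01) and 64 of 5502 in Tim3-KD (1.16%, 0.897 to 1.48), a difference of 0.430 points (0.0543 to 0.809). With this rule the members were more frequent with Tim3-KD in the macrometastasis pair beyond counting error, and the differences in adjacent tissue and micrometastasis lay within it. Neither metastatic call held under every rule. The macrometastasis difference fell within counting error at a threshold of 2.5 (0.305, -0.0217 to 0.633), in cells of at least 3000 UMIs (0.322, -0.0691 to 0.711), without members of 3 or more UMIs of other blood lineages (0.265, -0.0222 to 0.556) and with a rule on thinned UMIs (0.161, -0.222 to 0.539). The micrometastasis difference passed counting error at a threshold of 1.5 (-0.479, -0.963 to -0.00341), without Xcl1 in the rule (-0.573, -0.973 to -0.187), in cells of at least 3000 UMIs (-0.438, -0.799 to -0.0984), for members without a CD3 UMI (-0.334, -0.561 to -0.138, 5 against 22 cells) and without members of other blood lineages when Ccr2 was not counted (-0.357, -0.711 to -0.0139). Of the 22 Ctrl and 5 Tim3-KD members without a CD3 UMI in micrometastasis, 6 and 2 were free of endothelial genes. Counting error leaves out the variation between mice, which 1 library per group cannot show.

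The micrometastasis difference followed the endothelial group, which was 17 cells in Ctrl and 3 in Tim3-KD. Members with a CD3 chain alone were 29 in Ctrl and 31 in Tim3-KD there, a difference of 0.0349 points (-0.269 to 0.340). In macrometastasis the same cells were 26 in Ctrl (0.529%) and 63 in Tim3-KD (1.15%), a difference of 0.616 points (0.266 to 0.975). The members without a CD3 chain went the other way in macrometastasis, with 10 of 4913 cells in Ctrl and 0 of 5502 in Tim3-KD, which allows a share of up to 0.0545%. The larger share of members with Tim3-KD in macrometastasis was thus one of CD3-carrying cells.

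**Figure D2:**
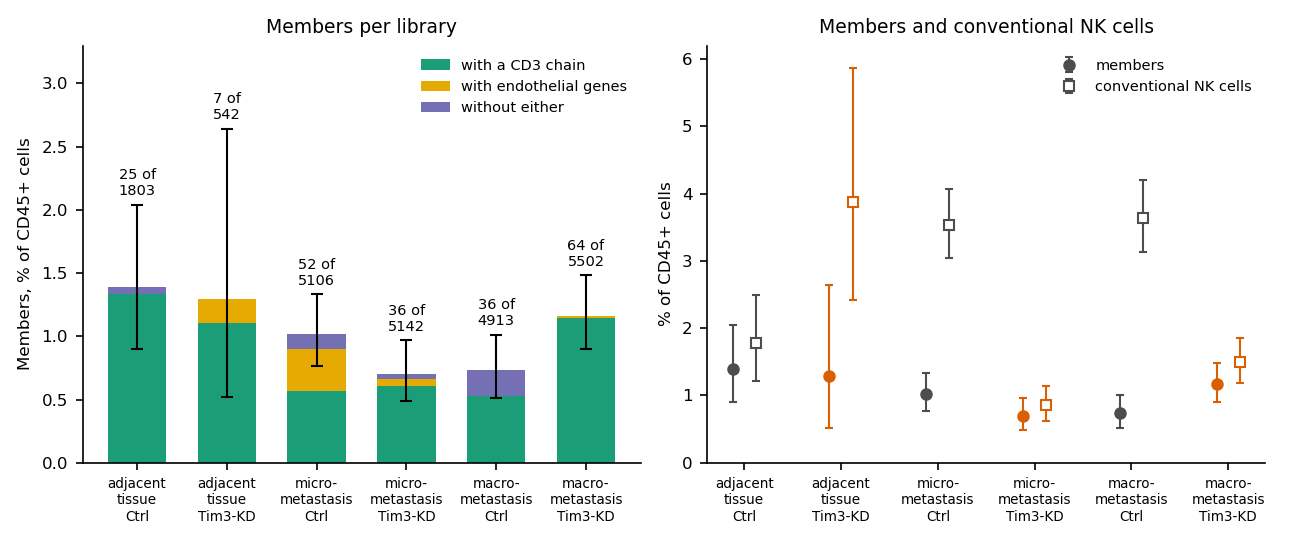
Left, members as a percentage of CD45+ cells in each library (stacked bars, colored by the 3 groups of members, with the count of members above), with exact binomial 95% intervals of the total. Right, members (filled circles) and conventional NK cells (open squares) as percentages of CD45+ cells with the same intervals, Ctrl in grey and Tim3-KD in orange; in micrometastasis and macrometastasis the NK cells are 3.53% and 3.64% in Ctrl and 0.856% and 1.49% in Tim3-KD, while the members stay between 0.700% and 1.16%.

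Against conventional NK cells, defined by a mean of Ncr1, Klra7, Klri2 and Eomes above 1.5 and a CD8 mean below 1.5, the balance differed between the tumor lines beyond counting error in both metastatic sites. Its direction turned for the members without a CD3 chain, past counting error only in macrometastasis. In adjacent tissue, members were 43.9% of members plus NK cells with Ctrl and 25% with Tim3-KD, a difference of -18.9 points (-36.7 to 3.12), which passed counting error at a threshold of 2.5 (-23.5, -39.6 to -1.52), in the direction opposite to the metastatic sites. They were 22.4% in micrometastasis Ctrl and 45% in Tim3-KD, a difference of 22.6 points (10.7 to 34.5). They were 16.7% in macrometastasis Ctrl and 43.8% in Tim3-KD, a difference of 27.1 points (17.5 to 36.3). In cells of at least 3000 UMIs the micrometastasis difference was 12.96 points (-0.720 to 27.0), within counting error. Counting only the members without a CD3 UMI turned it to -0.687 points (-8.35 to 11.4) in micrometastasis and to -5.29 points (-9.46 to -0.217) in macrometastasis. Of the 22 such members in micrometastasis Ctrl, 6 were free of endothelial genes, as were 2 of the 5 in Tim3-KD. The micrometastasis value thus mostly counted cells with endothelial genes. With NK cells free of CD3 UMIs the difference was 39.0 points (24.5 to 51.5) in micrometastasis and 32.7 points (21.9 to 42.7) in macrometastasis. The count of NK cells moved more than that of members: 180 in Ctrl against 44 in Tim3-KD in micrometastasis, and 179 against 82 in macrometastasis. A CD3 chain was also found in 23.8% of the cells called conventional NK, with the highest shares in adjacent tissue Tim3-KD (66.7%) and micrometastasis Tim3-KD (54.5%).

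Between sites, the Ctrl share of members in micrometastasis differed from that in adjacent tissue by -0.368 points (-1.06 to 0.177), within counting error. The difference passed counting error at a threshold of 2.5 (-0.548, -1.14 to -0.119) and with at least 2 of the 4 genes detected (-0.682, -1.36 to -0.161). It was 0.128 points (-0.541 to 0.660) without Xcl1 in the rule. Without the endothelial group it was past counting error, at -0.701 points (-1.38 to -0.182), and among CD3-carrying members it was -0.763 points (-1.43 to -0.263). With 1 rule on thinned UMIs for all sites it was -1.23 points (-2.02 to -0.615), whereas the members without a CD3 UMI gave 0.375 points (0.0788 to 0.601). The latter rested on 22 cells in micrometastasis, 6 of them free of endothelial genes, against 1 cell in adjacent tissue. The Ctrl share in macrometastasis differed from that in micrometastasis by -0.286 points (-0.660 to 0.0837) and from that in adjacent tissue by -0.654 points (-1.34 to -0.128). The first of these passed counting error at a threshold of 1.5 (-0.684, -1.16 to -0.220), without Xcl1 in the rule (-0.662, -1.06 to -0.281), without members of 3 or more UMIs of other blood lineages (-0.435, -0.759 to -0.126) and for members without a CD3 UMI (-0.227, -0.467 to -0.00257). It was 0.0473 points (-0.288 to 0.387) without the endothelial group, 0.0991 (-0.184 to 0.390) at a threshold of 2.5 and 0.111 (-0.247 to 0.476) with the thinned rule, so its direction was not settled. With Tim3-KD the share in macrometastasis exceeded that in micrometastasis by 0.463 points (0.0961 to 0.837). Day and site changed together in each comparison with macrometastasis and cannot be told apart.

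Set beside the conventional NK cells of the same library, the members held more transcripts of T cell receptor components and of many residency genes, and fewer of Gzma, Prf1 and most genes of the cell cycle. These comparisons are descriptions, since both kinds of cell were cut from the same scores. They cover the 5 libraries with at least 20 cells of each kind and genes with at least 20 UMIs over both, and a gene is counted when its CPM differed by more than 2-fold. Over all genes measured, the members were above the NK cells for 17.7% of 696 genes in adjacent tissue Ctrl and below for 18.1%. These percentages were 24.7% and 13.9% of 1420 genes in micrometastasis Ctrl, and 23% and 21.1% of 474 genes in micrometastasis Tim3-KD. They were 15.7% and 23.7% of 1085 genes in macrometastasis Ctrl, and 19.9% and 19.8% of 903 genes in macrometastasis Tim3-KD. A trimmed mean scaling put the typical gene of micrometastasis Ctrl 0.22 higher in members on the log2 scale, and relative to it the counts there became 281 genes above and 265 below in place of 351 and 198. Without the endothelial members the balance turned there, with 142 genes above and 249 below of 1193. The same shift was 0.16 in micrometastasis Tim3-KD and 0.11 in macrometastasis Tim3-KD.

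Of the measured genes in a list of T cell receptor components and T cell genes, 10 of 12 were past 2-fold higher in members in adjacent tissue Ctrl, 6 of 13 in micrometastasis Ctrl, 8 of 11 in micrometastasis Tim3-KD, 11 of 15 in macrometastasis Ctrl and 10 of 14 in macrometastasis Tim3-KD. At most 1 gene of the list, Tcf7, was past 2-fold lower in any library. Cd3e, a signaling chain of the complex, was at 635 and 522 CPM in members of adjacent tissue, 337 and 336 CPM in micrometastasis and 294 and 509 CPM in macrometastasis, against 13.8 to 174 CPM in the NK cells of the 6 libraries. The members were above the NK cells in each of them, by 21.2-fold (11.9 to 40.3) in macrometastasis Ctrl. Cd6, a T cell adhesion receptor, was at 221 CPM against 7.92 CPM in adjacent tissue Ctrl and 139 CPM against 3.35 CPM in macrometastasis Tim3-KD. Art2a, a surface ADP-ribosyltransferase of T cells, was at 856 against 71.2 CPM in adjacent tissue Ctrl and 691 against 6.70 CPM in macrometastasis Tim3-KD. Art2a and Art2b are near-identical neighbors, so how reads were divided between them is uncertain.

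Genes of a list of ILC1 and residency markers were more often higher than lower in members: 7 of 11 past 2-fold in adjacent tissue Ctrl, 10 of 18 and 9 of 13 in micrometastasis (Ctrl, then Tim3-KD) and 12 of 17 and 10 of 18 in macrometastasis, with 2 to 4 lower in each. The list is not specific to ILC1, as it held Cd3g and genes that resident T cells also express. Cxcr6, the receptor that holds lymphocytes in the liver sinusoids, was at 334 and 487 CPM in members of adjacent tissue, 182 and 229 CPM in micrometastasis and 408 and 416 CPM in macrometastasis. The NK cells held 16.7 to 187 CPM of Cxcr6, and the ranges of the 2 kinds of cell overlapped only at the 187 CPM of adjacent tissue Tim3-KD. Socs2, a suppressor of cytokine signaling, was at 102 to 229 CPM in members and at 0 to 15.1 CPM in NK cells. Inpp4b, a phosphoinositide phosphatase, was at 71.2 to 308 CPM in members and at 19.4 to 105 CPM in NK cells, with the lowest member value and the highest NK value both in adjacent tissue Tim3-KD. Cd69, which retains lymphocytes in tissue, stood at 448 to 600.0 CPM in members in all 6 libraries and at 176 to 373 CPM in NK cells.

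Other genes of the list were uneven. Il7r, the interleukin 7 receptor that separates many ILC1 from NK cells, was at 50 to 129.5 CPM in members, above the NK cells of 5 libraries but below them in adjacent tissue Tim3-KD (83.1 against 118 CPM). Tnfsf10, the death ligand TRAIL of liver ILC1, was at 49.8 to 107 CPM in members and at 13.7 to 24.3 CPM in NK cells, with no overlap. Tmem176a, a membrane protein found in innate lymphoid and type 17 cells, stood at 22.7 CPM in the adjacent tissue of Ctrl mice and 131 CPM in that of Tim3-KD mice, 195 and 229 CPM in micrometastasis and 134 and 61.7 CPM in macrometastasis, against 27.7 to 89.3 CPM in NK cells. It was thus not above the NK cells in adjacent tissue Ctrl. Tnfrsf9, the costimulatory receptor 4-1BB, was past 2-fold lower in members in all 5 libraries compared, at 0 to 34.0 CPM against 52.7 to 158 CPM.

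The genes of conventional NK cells pointed the other way, partly because the rule asked for low Ncr1, Klra7, Klri2 and Eomes. Outside those 4, a list of NK genes had 5 of 9 past 2-fold lower in members in adjacent tissue Ctrl, 7 of 10 and 4 of 8 in micrometastasis (Ctrl, then Tim3-KD) and 6 of 9 in each macrometastasis library. Past 2-fold higher were Klf2 in micrometastasis Ctrl, Klf2 and Ly6c2 in micrometastasis Tim3-KD and Ly6c2 in macrometastasis Tim3-KD. The counts for micrometastasis Ctrl, in this list and the next, include the 17 members with endothelial genes. A cytotoxic list that shares Gzma and Prf1 with it had 4 of 8 lower and 0 higher in adjacent tissue Ctrl, 6 of 10 lower and 2 higher in micrometastasis Ctrl, 5 of 9 lower and 0 higher in micrometastasis Tim3-KD, and 4 of 10 lower and 1 higher in each macrometastasis library. Gzma, the serine protease granzyme A, was at 782 and 688 CPM in members of adjacent tissue, 212 and 764 CPM in micrometastasis and 1095 and 379 CPM in macrometastasis. The NK cells held 5489 to 12490 CPM of Gzma, above the members everywhere. Prf1, the pore-forming perforin, was at 21.4 to 134 CPM in members against 233 to 1078 CPM in NK cells. Irf8, a transcription factor needed for NK responses, was at 33.9 to 193 CPM in members against 370.3 to 1383 CPM in NK cells.

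A list of genes that NK cells share with ILC1, which holds Ncr1 and Xcl1 of the rule, had 4 of 13 past 2-fold lower in members in adjacent tissue Ctrl, 8 of 14 and 7 of 14 in micrometastasis (Ctrl, then Tim3-KD) and 4 of 13 in each macrometastasis library. Xcl1 alone was past 2-fold higher, in micrometastasis Ctrl and macrometastasis Ctrl. The median ratio of the list was 0.359 in micrometastasis Ctrl and 0.534 to 0.648 in the other 4 libraries. Il2rb, the receptor chain for interleukins 2 and 15, was at 679.9 and 499 CPM in members of adjacent tissue, 718 and 750.1 CPM in micrometastasis and 741 and 932 CPM in macrometastasis, and the ratio to NK cells stayed between 0.696 and 1.06. Klrk1, the activating receptor NKG2D, was at 179 to 419 CPM in members and 239 to 514 CPM in NK cells. Klrd1, the CD94 chain that pairs with NKG2 receptors, was at 214 to 512 CPM in members and 592 to 896 CPM in NK cells, with no overlap. Klrb1c, the NK1.1 receptor gene, was held only by the macrometastasis matrix, at 34.8 and 18.5 CPM in members against 119 and 114 CPM in NK cells and 1.64 and 2.30 CPM in T cells. Zbtb16, the transcription factor PLZF of natural killer T cells, was at 39.8 and 40.1 CPM in members there, against 12.9 and 13.4 CPM in NK cells and 7.85 and 8.17 CPM in T cells. In members with a CD3 chain of macrometastasis, 16 of 89 cells carried Zbtb16 and 8 carried Klrb1c.

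Secreted effector genes were divided. Ifng, the interferon gamma gene, was at 521 and 451 CPM in members of adjacent tissue, 575 and 571 CPM in micrometastasis and 532 and 740.3 CPM in macrometastasis. NK cells held 97.4 to 352 CPM of Ifng, so all 6 member values lay above all 6 NK values. Tnf was at 38.9 to 117 CPM in members and 7.92 to 55.2 CPM in NK cells. The chemokine Ccl5 was lower in members, at 3357 to 6754 CPM against 11539 to 22428 CPM. Ccl3 and Ccl4, inflammatory chemokines, were lower too, at 225 to 562 CPM against 675 to 2183 CPM for Ccl3 and 450.0 to 1790.5 CPM against 2876 to 5493 CPM for Ccl4. Gzmb, granzyme B, was at 1315 and 131 CPM in members of adjacent tissue, 964 and 550.0 CPM in micrometastasis and 522 and 1582 CPM in macrometastasis, so that the members lay above the 876 CPM of the NK cells only in macrometastasis Tim3-KD. Fasl, the death ligand, was within 2-fold of the NK level except in adjacent tissue Tim3-KD (47.5 against 199 CPM) and micrometastasis Ctrl (73.5 against 241 CPM), where it was lower.

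Genes of the cell cycle were low in members. Every measured gene of the proliferation list was past 2-fold lower than in NK cells in 4 libraries (7 of 7 in adjacent tissue Ctrl, 8 of 8 in micrometastasis Tim3-KD and 9 of 9 in each macrometastasis library), and 6 of 8 were in micrometastasis Ctrl. Mki67, a marker of cycling cells, was at 5.67 and 11.9 CPM in members of adjacent tissue, 43.2 and 14.3 CPM in micrometastasis and 4.98 and 6.17 CPM in macrometastasis, against 89.5 to 206 CPM in the NK cells of every library but adjacent tissue Tim3-KD (4.06 CPM). In adjacent tissue Ctrl the NK signal came from few cells: 3 of 32 carried Mki67, and 1 cell held 96.2% of the UMIs of Birc5. In macrometastasis it was wider, with Top2a in 14.5% of the NK cells of Ctrl and Stmn1 in 31.7% of those of Tim3-KD.

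**Figure D3:**
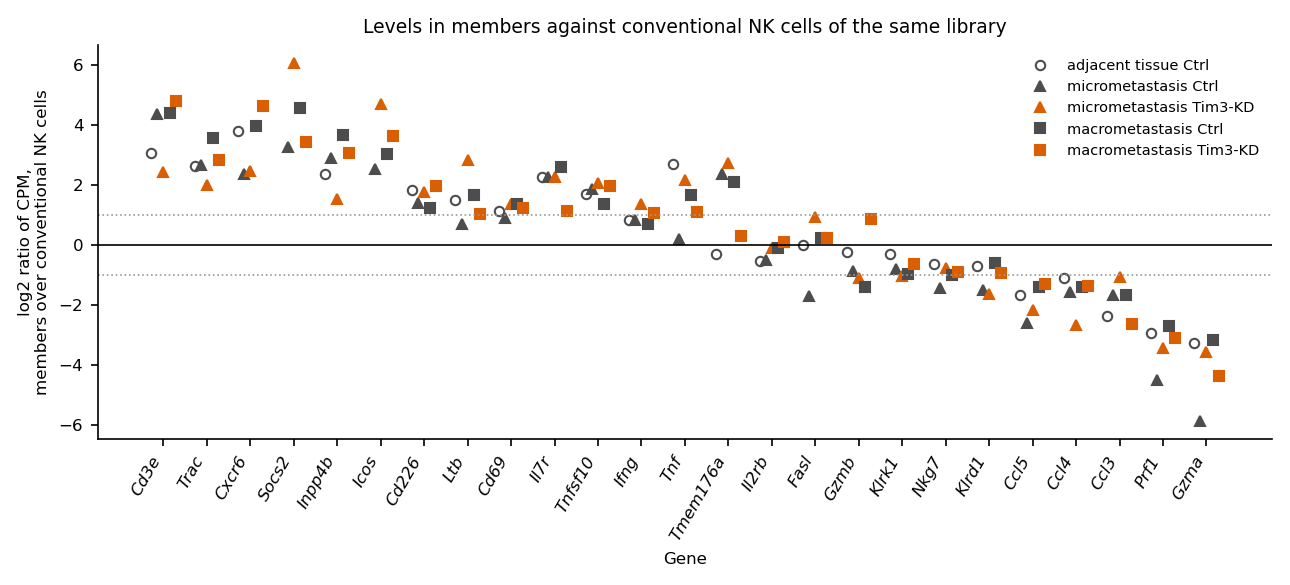
Ratio of the CPM of members to that of conventional NK cells of the same library (y axis, log2 scale) for 25 genes (x axis) in the 5 libraries with at least 20 cells of each kind; shapes give the site and colors the tumor line (grey Ctrl, orange Tim3-KD), dotted lines mark 2-fold, and a gene with no UMI in 1 of the 2 kinds of cell has no point (Socs2 and Icos in adjacent tissue Ctrl). Cd3e, Cxcr6 and Inpp4b lie above 0 and Prf1 and Gzma below it in all 5 libraries.

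Since most members carried CD3 chains, they were also set beside the other T cells of their library, cells with a mean above 1 over Cd3d, Cd3e, Cd3g, Trac, Trbc1 and Trbc2 that were neither members nor NK cells. Cd3e in members was 0.722 to 1.35 times the T cell level. Ifng was higher in members in all 5 libraries compared, by 1.89-fold (1.48 to 2.38) in adjacent tissue Ctrl, 2.46-fold (2.02 to 2.99) and 2.07-fold (1.62 to 2.62) in micrometastasis (Ctrl, then Tim3-KD), and 2.44-fold (1.97 to 3.00) and 3.32-fold (2.86 to 3.83) in macrometastasis. Il2rb was higher by 1.78 to 3.73-fold. Il7r was lower, at 0.230 to 0.422 times the T cell level. Members thus held more of the interleukin 15 receptor chain and less of the interleukin 7 receptor than the other T cells. These are descriptions, since the rule left out CD8 cells, which the other T cells kept. Of all genes measured in adjacent tissue Ctrl, 389 of 2156 were past 2-fold higher in members and 277 lower. Ccr7, S1pr1, Lef1 and Tcf7 were among the lower ones. The members of micrometastasis Ctrl included the 17 with endothelial genes.

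Cxcr6 exceeded the T cell level in adjacent tissue Ctrl by 1.63-fold (1.21 to 2.17) and in macrometastasis by 3.24-fold (2.52 to 4.12) in Ctrl and 2.44-fold (2.02 to 2.95) in Tim3-KD. In micrometastasis its ratio was 0.957 (0.680 to 1.32) in Ctrl and 1.25 (0.843 to 1.79) in Tim3-KD, not past counting error. The Ctrl ratio was over all 52 members, 17 of them with endothelial genes. Gzmb was 3.35-fold (2.85 to 3.92) the T cell level in adjacent tissue Ctrl, 2.44-fold (2.10 to 2.84) in micrometastasis Ctrl and 0.993-fold (0.779 to 1.25) in micrometastasis Tim3-KD. It was 2.06-fold (1.66 to 2.52) in macrometastasis Ctrl and 7.39-fold (6.61 to 8.26) in macrometastasis Tim3-KD, the widest gap of the 5. Havcr2, which encodes Tim3 itself, had no UMI in any of the 220 members, which allows up to 1.36% of cells with a UMI and 2.59 CPM and does not limit the share of cells that express it, whereas the T cells of micrometastasis Tim3-KD held 46.1 CPM.

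Between the tumor lines in micrometastasis, most differences in members were losses with Tim3-KD: of 606 genes with at least 20 UMIs over the 36 Tim3-KD and 52 Ctrl members, 4.46% were past 2-fold higher and 31.7% past 2-fold lower with Tim3-KD. The 5 measured endothelial genes were all among the lower ones, Kdr with 528 and 92.9 CPM and Clec4g with 1124 and 221 CPM. Without the members of 3 or more endothelial UMIs, 26 genes were past 2-fold higher and 48 lower of 347, or 74 in place of 219. The typical gene was lower with Tim3-KD, by 0.43 on the log2 scale with a trimmed mean scaling, and relative to that 80 genes were past 2-fold higher and 135 lower. The 2 libraries therefore differed in how many members were endothelial in their transcripts. How this weighed against other differences was not tested.

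Within the CD3-carrying members of micrometastasis, 31 in Tim3-KD and 29 in Ctrl, some effector genes still differed past counting error. Fasl was at 236 CPM in all Tim3-KD members and 73.5 CPM in Ctrl members, a ratio of 3.21 (1.74 to 6.14), and the ratio was 2.36 (1.22 to 4.81) in the CD3-carrying members. Gzma was at 764 against 212 CPM, a ratio of 3.61 (2.55 to 5.17), or 2.74 (1.87 to 4.07) in the CD3-carrying members. Gzma was carried by only 5 Tim3-KD and 6 Ctrl cells, and 1 cell held 33.6% of its UMIs in Tim3-KD and 42.9% in Ctrl. The Gzma difference thus rested on a handful of cells, whereas Fasl was spread over 23 cells in Tim3-KD and 14 in Ctrl.

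Lymphotoxin beta (Ltb), which shapes lymphoid tissue, was lower in members of micrometastasis with Tim3-KD, at 121 against 484 CPM, a ratio of 0.251 (0.141 to 0.420). Ltb was as low in the other lymphocytes of that library: 65.2 CPM in T cells and 17.1 CPM in NK cells with Tim3-KD, against 481 and 295 CPM in Ctrl. The lower Ltb was therefore shared with the other lymphocytes of the library. Ccl4 was at 450.0 against 1470.3 CPM, a ratio of 0.306 (0.230 to 0.401), and Gzmb at 550.0 against 964 CPM, a ratio of 0.570 (0.434 to 0.742). In the CD3-carrying members these ratios were 0.182 (0.134 to 0.244) for Ccl4, with 1 cell holding 52.5% of the Ctrl UMIs, and 0.408 (0.307 to 0.537) for Gzmb. Ifng gave 0.994 (0.743 to 1.32) over all members and 0.690 (0.509 to 0.931) in the CD3-carrying ones.

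Against the 4.46% of all genes that were past 2-fold higher and the 31.7% past 2-fold lower in micrometastasis, the T cell list had 1 of 11 measured genes past 2-fold higher with Tim3-KD (Cd28, a costimulatory receptor) and 0 lower. The ILC1 and residency list had 1 of 14 higher (Ikzf2, the transcription factor Helios) and 1 lower (Ltb). The cytotoxic list had 2 of 9 higher (Fasl and Gzma) and 0 lower, and the conventional NK list 2 of 8 higher (Gzma and Klra3) and 0 lower. The list of immediate early and stress genes had 0 of 19 higher and 4 lower, namely Hspa1a, Hspa1b, Myc and Nr4a2. The share over all genes depended on the endothelial members, without which 48 of 347 genes were past 2-fold lower. Apart from the endothelial list, no list had more than 4 genes past 2-fold.

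Between the 64 Tim3-KD and 36 Ctrl members of macrometastasis, 11.4% of 534 genes were past 2-fold higher and 6.93% past 2-fold lower with Tim3-KD. Without the single endothelial member these were 55 and 37 genes of 522. The typical gene was 0.13 higher on the log2 scale with a trimmed mean scaling, relative to which 49 genes were higher and 50 lower in place of 61 and 37. Gzmb was at 1582 CPM in Tim3-KD members and 522 CPM in Ctrl members, a ratio of 3.03 (2.45 to 3.77), and the most loaded cell held 10.9% of its UMIs in Tim3-KD and 22.9% in Ctrl. In the CD3-carrying members the Gzmb ratio was 2.96 (2.36 to 3.75). Gzmb was found in 37 of 64 Tim3-KD members and 18 of 36 Ctrl members, so the difference lay in UMIs per carrying cell more than in the number of such cells. Gzmb was not higher with Tim3-KD in the other T cells or the NK cells, with 214 against 254 CPM in T cells and 876 against 1395 CPM in NK cells (Tim3-KD against Ctrl).

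Klre1, an NK receptor of the lectin-like family, was at 185 CPM in Tim3-KD members of macrometastasis and 34.8 CPM in Ctrl members, a ratio of 5.31 (2.43 to 13.8). It was carried by 27 of 64 Tim3-KD and 6 of 36 Ctrl members. In the CD3-carrying members the ratio was 10.2 (3.31 to 50.6), on 60 against 3 UMIs. The NK cells held 517 CPM of Klre1 with Tim3-KD and 384 CPM with Ctrl. Fos, an immediate early transcription factor, was at 978 against 338 CPM, a ratio of 2.89 (2.22 to 3.81). Dusp2, a phosphatase induced by activation, was at 713 against 328 CPM, a ratio of 2.17 (1.64 to 2.90). Both also exceeded 2-fold in the CD3-carrying members, with 2.59 for Fos and 2.41 for Dusp2.

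Genes lower in the Tim3-KD members of macrometastasis included S100a4, a calcium-binding protein, at 133 against 652 CPM (ratio 0.204, 0.141 to 0.289). Rora, a nuclear receptor of innate lymphoid cells, was at 58.6 against 204 CPM (0.287, 0.158 to 0.506). Il18r1, a chain of the interleukin 18 receptor, was at 27.8 against 104 CPM (0.266, 0.107 to 0.605). These 3 kept ratios of 0.312, 0.315 and 0.286 in the CD3-carrying members. Gzma (379 against 1095 CPM, ratio 0.347, 0.276 to 0.434) and Ccl3 (225 against 562 CPM, ratio 0.401, 0.294 to 0.542) did not keep theirs: in the CD3-carrying members the ratio was 0.790 (0.591 to 1.06) for Gzma and 0.741 (0.510 to 1.08) for Ccl3. Irf8, with 33.9 against 144 CPM over all members, gave 1.12 in the CD3-carrying members.

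Against the 11.4% of all genes that were past 2-fold higher and the 6.93% past 2-fold lower in macrometastasis, the ILC1 and residency genes had 0 of 15 past 2-fold higher with Tim3-KD and 3 lower (Ikzf2, Il18r1 and Tmem176a). The T cell list had 0 of 15 higher and 1 lower (Cd5), the cytotoxic list 1 of 10 higher (Gzmb) and 2 lower (Gzma and Lamp1), and the cytokine list 0 of 8 higher and 1 lower (Ccl3). The conventional NK list had 0 of 8 higher and 3 lower (Gzma, Irf8 and Ly6c2), and the immediate early and stress list 2 of 13 higher (Dusp2 and Fos) and 1 lower (Hspa1a). The checkpoint list had 1 of 8 higher (Tox). Cxcr6 gave a ratio of 1.02 (0.770 to 1.36) and Nkg7 1.00 (0.857 to 1.17), with Nkg7 at 1328 and 1329 CPM.

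**Figure D4:**
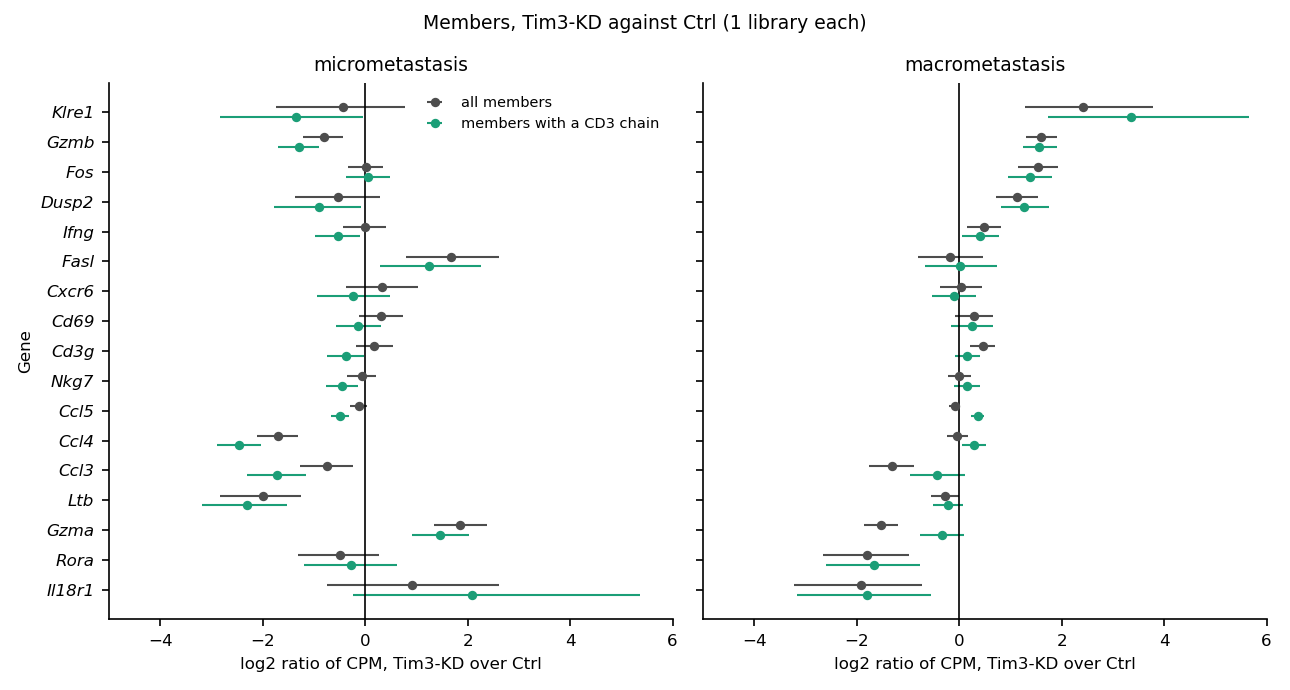
Ratio of CPM in members, Tim3-KD over Ctrl (x axis, log2 scale), for 17 genes (y axis) in micrometastasis (left) and macrometastasis (right), with 95% intervals of counting error; grey shows all members and green those with a CD3 chain and without endothelial genes. In macrometastasis Klre1, Gzmb, Fos and Dusp2 lie right of 0 in both sets of members, while Gzma lies left of 0 in all members and near 0 in the green set.

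Between the sites in Ctrl, members of micrometastasis differed from those of adjacent tissue in the endothelial genes among others: of 596 genes in both matrices, 28.2% were past 2-fold higher and 11.2% past 2-fold lower in micrometastasis, and all 5 measured endothelial genes were higher. Without the endothelial cells the balance turned, with 32 genes past 2-fold higher and 41 lower of 367, or 73 in place of 235. The T cell list had 0 of 13 higher and 8 lower, with Trac at 177 CPM in micrometastasis and 686 CPM in adjacent tissue, a ratio of 0.259 (0.177 to 0.371), and still 0.420 in the CD3-carrying members. Cd3g was at 718 against 1518 CPM, a ratio of 0.473 (0.387 to 0.576), or 0.750 in the CD3-carrying members. Tmem176a and Tmem176b, at 195 CPM each in micrometastasis against 22.7 and 11.3 CPM in adjacent tissue, gave ratios of 8.59 (3.13 to 32.9) and 17.2 (4.49 to 146). In the CD3-carrying members their ratios were 9.75 (2.95 to 50.7) and 24.2 (3.84 to 1004), on 3 UMIs and 1 UMI in adjacent tissue, so both genes were higher without the endothelial cells too.

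Ctrl members of macrometastasis against those of micrometastasis had 7.77% of 489 genes past 2-fold higher and 33.7% past 2-fold lower, the 5 endothelial genes among the lower ones. The typical gene was lower by 0.12 on the log2 scale with a trimmed mean scaling. Without the endothelial cells 29 genes were past 2-fold higher and 26 lower of 316, or 55 in place of 203, so the excess of lower genes was gone. Gzma was at 1095 against 212 CPM, a ratio of 5.17 (3.78 to 7.19), but 1.69 in the CD3-carrying members. Ltb was at 1019.9 against 484 CPM, a ratio of 2.11 (1.66 to 2.68), and Cxcr6 at 408 against 182 CPM, a ratio of 2.25 (1.53 to 3.34). In the CD3-carrying members the ratios were 1.55 for Ltb and 1.54 for Cxcr6, both within 2-fold. Gzmb was lower in macrometastasis Ctrl, at 522 against 964 CPM, a ratio of 0.542 (0.425 to 0.686), or 0.383 in the CD3-carrying members. Ifng was 0.926 (0.711 to 1.20) times its micrometastasis level over all members and 0.660 (0.497 to 0.875) times in the CD3-carrying ones.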

How the data were processed

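CD45+ cells of liver were profiled with 10x Genomics 3' v3.1 libraries. Per the labels and methods, the authors trimmed reads with Trim Galore 0.4.3, mapped them with STAR 2.7.7a to GRCm38, removed doublets with scrublet and filtered cells on UMIs, genes and mitochondrial reads. The deposited values are scaled scores, with both libraries of a site scaled together and the 3 sites apart. The model used to invert them took log-normalized UMIs with the total UMIs of the cell regressed out, capped at 10. The matrices held 4486, 2669 and 2643 genes (adjacent tissue, micrometastasis, macrometastasis).

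The scores were inverted to UMIs. Below the cap, 99.9996%, 99.9999% and 99.9969% of values came out whole to within 0.05. Capped values (0.144%, 0.160% and 0.153%) give lower bounds. Tested on a simulated matrix of 4486 genes in 2345 cells, the inversion returned 100% of UMIs below the cap exactly. The simulated scores were made with the same model, so this checked the calculation and not how the deposited scores were made. UMIs were summed per library and kind of cell and divided by all UMIs of those cells. Ratios carry exact conditional (binomial) intervals, shares exact Clopper-Pearson intervals and differences of shares Newcombe intervals. These intervals and the limits for a count of 0 (3 counts) cover counting error only, since 1 library per group allowed no test within a site; none over the sites was run. Gene positions are from GENCODE vM21 on GRCm38.

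The members and the gene lists were chosen with earlier results of these data known. Named genes were those of the lists and, by ratio, the 10 highest and 10 lowest of members over conventional NK cells, the 10 highest over all other cells, and the 5 highest and 5 lowest between libraries (at least 20 or, between libraries, 30 UMIs, 0.5 added for ranking); variable receptor, ribosomal, mitochondrial and sex-linked genes were left out. B cells had a mean above 1 over a set of B cell genes that included Cd79a, Cd79b, Ms4a1 and Fcmr; 1 gene of the set is not reported here. Alternatives were thresholds of 1.5 and 2.5, leaving out Xcl1, at least 2 of the 4 genes detected, cells of at least 3000 UMIs, members with or without CD3, members free of other lineages, a rule on UMIs thinned to 1500 per cell, cells other than neutrophils as the denominator, the mean over cells, trimmed mean scaling, and minimums of 1 and 50 UMIs. The software was Python 3.11.15, numpy 2.4.6, pandas 2.3.3, scipy 1.17.1, statsmodels 0.14.6 and matplotlib 3.10.9.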

Additional observations from a re-analysis of the deposited data

Results flagged for a closer look

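In 3 measures the Tim3-KD against Ctrl values of members had opposite signs in micrometastasis and macrometastasis; with 1 library per group the difference between the sites was not tested. The share of members among CD45+ cells differed by -0.318 percentage points (Tim3-KD minus Ctrl, -0.688 to 0.0418, within counting error) in micrometastasis and by 0.430 points (0.0543 to 0.809) in macrometastasis. Gzma in members gave a Tim3-KD over Ctrl ratio of 3.61 in micrometastasis and 0.347 in macrometastasis. Gzmb gave 0.570 in micrometastasis and 3.03 in macrometastasis. In the members with a CD3 chain and without endothelial genes the directions were the same for Gzmb (0.408 and 2.96) and for Gzma (2.74 and 0.790, the latter with an interval of 0.591 to 1.06), while both differences of the share were positive (0.0349 and 0.616 points).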

How the results depend on the processing

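Replicate numbers give no pairs, each group being 1 library, so no analysis paired by replicate was possible. A comparison of the tumor lines paired by site was not run. A threshold of 1.5 gave 365 members, 2.5 gave 138, and requiring no CD3 UMI left 39. Of these 39, 19 were free of endothelial genes, with 6 of 22 in micrometastasis Ctrl and 2 of 5 in micrometastasis Tim3-KD. With those 39 the Tim3-KD minus Ctrl difference turned to -0.204 points for the share in macrometastasis, and the difference in members as a share of members plus NK cells to -0.687 points in micrometastasis and -5.29 in macrometastasis; that in micrometastasis was 39.0 points with NK cells free of CD3 UMIs. The Ctrl share, micrometastasis minus adjacent tissue, was 0.375 points without CD3 and -1.23 with the thinned rule. The Ctrl share, macrometastasis minus micrometastasis, was -0.684 (threshold 1.5), 0.0991 (threshold 2.5), -0.662 (without Xcl1) and 0.111 points (thinned rule). The thinned rule, NK cells free of CD3 UMIs, CD3-carrying members alone, members free of endothelial genes, and members free of other lineages with Ccr2 not counted were settings chosen after seeing the data.

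Counts of genes past 2-fold followed the UMI minimum. With minimums of 1 and 50 UMIs they were, against NK cells, 2110 and 77 in adjacent tissue Ctrl, 1284 and 196 in micrometastasis Ctrl, 1473 and 74 in micrometastasis Tim3-KD, 1358 and 196 in macrometastasis Ctrl and 1164 and 154 in macrometastasis Tim3-KD. For Tim3-KD over Ctrl they were 1262 and 67 in micrometastasis and 1027 and 26 in macrometastasis, and between Ctrl sites 1107 and 80 (micrometastasis over adjacent tissue) and 894 and 64 (macrometastasis over micrometastasis). Without endothelial members the counts were 74 for Tim3-KD over Ctrl in micrometastasis, and 73 and 55 for those Ctrl sites.

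For 241 gene values, which were ratios and percentages of members with a UMI, 2115 values under alternatives were computed. Of these, 1712 stayed within the interval, 394 left it and 9 changed direction. A change of direction was counted only for ratios past 2-fold with an interval off 1, so the 394 can include ratios that crossed 1. All 9 were in members of micrometastasis Ctrl without a CD3 UMI: over NK cells Cd3e, Cd3g and Trac 0, Cxcr6 0.311, Inpp4b 0.916, Cd226 0.885 and Icos 0.512, and over T cells Ifng 0.658 and Gzmb 0.890. The zeros of Cd3e and Cd3g follow from how those members were picked. Of the 22 members in that set, 6 were free of endothelial genes, so the other values describe mostly cells with such genes. Settings that left under 20 cells on a side gave no value. The number of cells, 7 members, left no ratio for adjacent tissue Tim3-KD.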

Other observations

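Among the genes of highest ratio between members and all other cells, which describe the members and support nothing, adjacent tissue had Klra5 and Klra1, inhibitory Ly49 receptors found in 12.5% and 21.9% of its 32 members with 42.1% and 36.4% of their UMIs in 1 cell, and Trgc1, a gamma chain constant region, while macrometastasis had Podnl1, a matrix protein, at 147 CPM against 2.73 CPM in all other cells and in 41% of members. Micrometastasis was led, after Xcl1, by the endothelial genes Ptprb, F8 and Adgrf5.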
